A study of Rattus norvegicus with 16 samples.

Results

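The transcriptional response of microglia to lipopolysaccharide was followed while apolipoprotein A-I was present in the medium, by comparing the 4 libraries that received both agents with the 4 that received apolipoprotein A-I alone. These 8 libraries were taken by their sample titles from the 16 in the series. The cells were wild type primary rat microglia at day 12 in vitro. Lipopolysaccharide (LPS), the glycolipid that coats Gram-negative bacteria, was in the medium for 20 hours at 100 ng/ml. The added apolipoprotein A-I (ApoA-I), which makes up most of the protein in high-density lipoprotein, was used at 100 ug/ml. The groups compared, ApoA-I and LPS with ApoA-I, thus share ApoA-I and differ by LPS. The remaining groups of 4, Control without either agent and LPS alone, gave the same response without ApoA-I and were used only to set it beside the response with ApoA-I.

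Microglia are the resident macrophages of the brain. They sense LPS through a receptor complex that contains Toll-like receptor 4. Signalling from it activates NF-kB and interferon regulatory factors, which drive cytokine, chemokine and interferon-stimulated genes, while genes of resting microglia are often lowered. ApoA-I takes up cholesterol from cells through the transporter ABCA1 and can also bind LPS.

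The genes are listed by Ensembl rat identifier without names. None of the 30560 identifiers could be matched to a symbol in the available RefSeq gene table (assembly GRCr8, 47357 genes), so inflammatory genes could not be named and cell type markers could not be checked. The response is therefore described for groups of genes defined in libraries outside the comparison, and for 4 identifiers chosen by a rule of size. No promoter or microRNA sequence is shown, because none could be tied to an identifier.

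Total estimated counts ranged from 12304915 to 13238864 in the ApoA-I libraries and from 13253460 to 16229104 in the libraries with LPS and ApoA-I. The ApoA-I libraries had 12083 to 12276 genes with at least 5 counts, and the libraries with both agents 11837 to 12011, so somewhat fewer genes were detected with LPS despite the higher totals. The median within-group SD of a gene's log2 CPM (read counts scaled to library size by TMM) was 0.14 in ApoA-I libraries and 0.11 in libraries with LPS and ApoA-I. The labels do not tell whether replicates came from different cultures or animals. The p-values therefore measure only how far these libraries spread, which may be technical. In bulk samples, fewer cells of a type and less RNA per cell cannot be told apart.

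The LPS response was broad with ApoA-I in the medium. By edgeR's quasi-likelihood test, 8255 of the 11902 genes that passed the filter on low counts (69.4%) differed between LPS with ApoA-I and ApoA-I at a Benjamini-Hochberg adjusted p under 0.05, the threshold for every call below. Of these, 4111 were higher (34.5% of tested genes) and 4144 lower (34.8%). Most changes were small, with medians of 0.56 log2 units for higher and -0.84 for lower genes. Changes beyond 1 log2 unit were found in 911 higher and 1779 lower genes, and beyond 2 log2 units in 362 and 674. Among the most extreme changes, over 4 log2 units, the balance was the other way, with 124 genes higher and 92 lower. Scaling by library totals moved the median log2 change of all genes from -0.01 to -0.30, and 26.7% of the called genes were then higher, against 49.8% with TMM. On log2(TPM + 1) values, tested with limma, 22.4% were higher. Directions of small changes are thus relative to the scaling, and the numbers of larger changes depend on it too. Genes higher by over 1 log2 unit went from 911 to 630 with library totals and to 434 on log2(TPM + 1). Those lower by over 1 log2 unit went from 1779 to 2459 and to 1774.

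The question of which LPS-responsive genes still respond was put by choosing genes in LPS against Control, libraries that enter LPS with ApoA-I against ApoA-I only through the shared scaling, filter and estimate of the spread. LPS raised 1332 genes by more than 1 log2 unit without ApoA-I, in a comparison that called 74.7% of tested genes, 36.3% as higher and 38.4% as lower. Of these 1332, 1128 (84.7%) were also called higher with ApoA-I, 176 were not called and 28 (2.1%) were called lower. The background for a higher call with ApoA-I is the 34.5% given above. The median response of the 1332 genes was 1.75 log2 units without ApoA-I and 1.12 with it, with quartiles of 0.65 and 2.06, against a median of -0.01 over all tested genes. By more than 1 log2 unit, 724 of them (54.4%) rose with ApoA-I.

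Genes with the strongest LPS induction were the ones most often still called. Among 203 genes raised by more than 4 log2 units without ApoA-I, 195 (96.1%) rose with ApoA-I, all 195 by more than 1 log2 unit, and 8 were not called. Their median response was 6.02 log2 units without ApoA-I and 4.21 with it. Among 361 genes raised by 2 to 4 log2 units, 314 (87%) rose, 44 were not called and 3 fell. Among 768 raised by 1 to 2 log2 units, 619 (80.6%) rose, 124 were not called and 25 fell. A larger change is easier to call, so the order of these shares does not compare the genes' sensitivity to ApoA-I.

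Genes lowered by LPS gave similar shares. LPS lowered 2253 genes by more than 1 log2 unit without ApoA-I. With ApoA-I, 1993 of them (88.5%) were called lower, 248 were not called and 12 (0.533%) were called higher, against the background of 34.8% for a lower call. Their median change was -1.91 log2 units without and -1.34 with ApoA-I. Out of 284 genes that fell by over 4 log2 units without ApoA-I, 279 (98.2%) fell with ApoA-I, and the median went from -4.91 to -3.22.

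**Figure D1:**
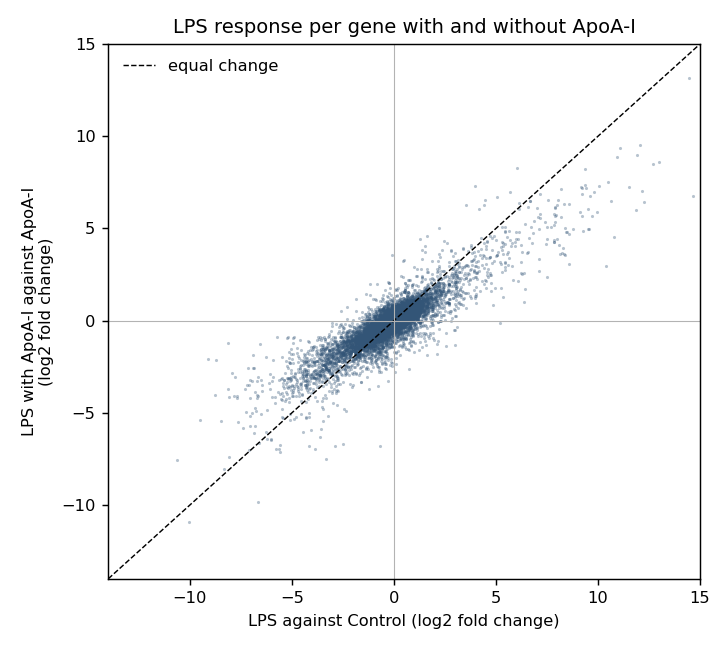
Log2 fold change of each of the 11902 tested genes in LPS against Control (x axis) and in LPS with ApoA-I against ApoA-I (y axis), 4 libraries per group; the dashed line marks equal change. Genes raised by over 4 log2 units without ApoA-I had a median of 6.02 on the x axis and 4.21 on the y axis, and those lowered by over 4 log2 units -4.91 and -3.22.

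Genes chosen for a large change in one set of libraries owe part of it to the choice, so the choice was also made the other way round. Out of 911 genes that rose by over 1 log2 unit with ApoA-I, 822 (90.2%) were called higher without it, 84 were not called and 5 were called lower. Their median response was 1.66 log2 units with ApoA-I and 2.07 without. For the 124 genes that rose by over 4 log2 units with ApoA-I, 122 were called higher without it, and the medians were 5.2 and 7.16. Out of 1779 genes that fell by over 1 log2 unit with ApoA-I, 1615 (90.8%) were also lower without it, with medians of -1.71 and -2.16. The background for these calls without ApoA-I is 36.3% higher and 38.4% lower over all tested genes. The response with ApoA-I had the smaller median in both directions, whichever response the genes were chosen on. Each response starts from its own group without LPS. Genes raised by over 1 log2 unit without ApoA-I held a mean of 8.81% of counts in Control and 9.88% in ApoA-I. The lowered genes held 14.59% and 14.54%. Genes raised by over 4 log2 units differed more at the start, with 0.186% ± 0.0398 in Control and 0.291% ± 0.0952 in ApoA-I (SD, n = 4 each). For genes lowered by over 4 log2 units the means were 1.195% in Control and 1.244% in ApoA-I. Control libraries entered the choice of these genes. How far levels without LPS account for the smaller medians was not tested.

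**Figure D2:**
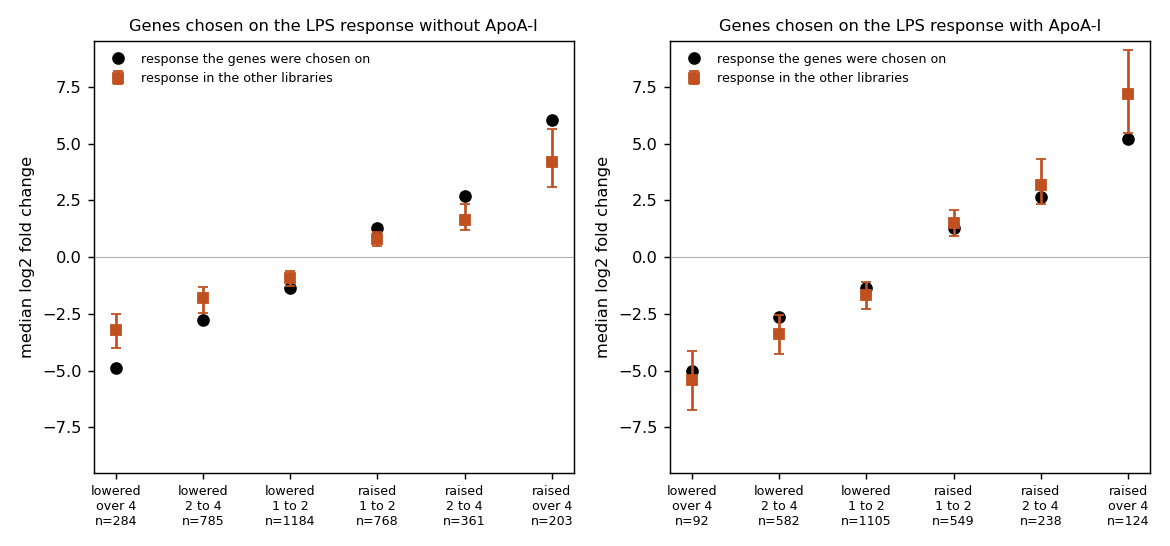
Median log2 fold change of genes grouped by size of their LPS response without ApoA-I (left) or with ApoA-I (right); circles are the response used to choose the genes, squares the response of the same genes in the other 8 libraries, bars the quartiles over genes. On the left the squares lie closer to 0 than the circles, and on the right farther from 0, as for genes raised by over 4 log2 units (6.02 and 4.21 on the left, 5.2 and 7.16 on the right).

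Whether the response of a gene differed with and without ApoA-I was tested directly as the difference of the 2 responses. It passed in 4880 genes (41% of those tested), with 2472 values positive (20.8%) and 2408 negative (20.2%). A positive value can come from a larger rise or a smaller fall with ApoA-I, and a negative value from a smaller rise or a larger fall. The signs alone therefore do not tell how many responses were weaker or stronger with ApoA-I. The balance of signs depends on the processing: 50.7% of the values past the threshold were positive here, 65.1% with library totals (2952 positive and 1583 negative) and 46.4% with DESeq2 (2267 positive and 2618 negative). This test uses the same libraries as both responses, so no overlap with their calls is given.

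Few genes responded in opposite directions. The 28 genes raised without ApoA-I and called lower with it had median changes of 1.45 and -0.78 log2 units, and with ApoA-I they ranged from -1.86 to -0.18. For 9 of them the fall with ApoA-I exceeded 1 log2 unit. The 12 genes lowered without ApoA-I and called higher with it had medians of -1.33 and 0.43, and with ApoA-I they ranged from 0.20 to 1.47. When genes were chosen with ApoA-I, 5 of the 911 raised and 24 of the 1779 lowered genes were called in the opposite direction without it. The 24 had medians of -1.35 log2 units with and 0.84 without ApoA-I.

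The weight of the response in each library was read from the share of all counts held by the 1332 raised and the 2253 lowered genes, again chosen without the libraries compared. The raised genes held 10.7%, 9.43%, 9.77% and 9.60% of counts in ApoA-I libraries 1 to 4. In the libraries with LPS and ApoA-I they held 21.4%, 23.1%, 21.7% and 21.6%. The groups did not overlap, with means of 9.88% ± 0.566 and 21.9% ± 0.794 (SD, n = 4 each). The lowered genes held 14.2%, 13.4%, 15.1% and 15.5% of counts in ApoA-I libraries and 4.65%, 4.91%, 5.2% and 5.09% in libraries with LPS and ApoA-I. These groups did not overlap either. Means were 14.5% ± 0.927 and 4.96% ± 0.239 (SD, n = 4 each).

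The most inducible genes differed by a larger factor. The 203 genes with a rise over 4 log2 units held 0.424%, 0.292%, 0.241% and 0.207% of counts in ApoA-I libraries and 5.43%, 6.04%, 5.2% and 5.28% in libraries with LPS and ApoA-I. Their median level, relative to the ApoA-I mean, was 3.31, 3.24, 3.10 and 3.22 log2 units in the libraries with both agents, on log2 CPM with a prior count of 2, which understates the change of low genes. The libraries with LPS alone lay between 4.65 and 4.73 on this scale, but they were used to choose these genes. The 284 genes with a fall over 4 log2 units lay between -2.94 and -2.82 in the libraries with both agents.

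**Figure D3:**
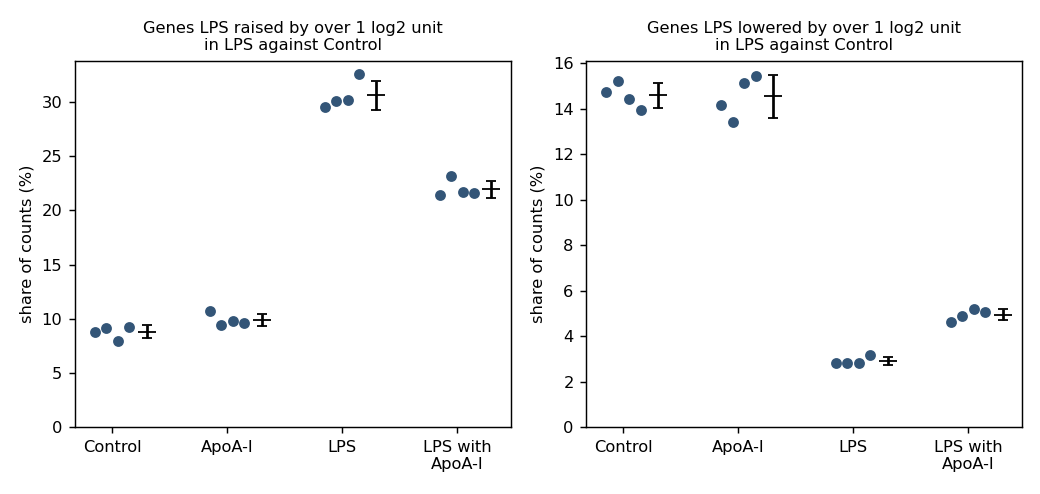
Share of all counts (%, y axes from 0) held by the genes that LPS raised (left) or lowered (right) by more than 1 log2 unit in LPS against Control, in each of 16 libraries; points are libraries and bars the mean ± SD of 4. The Control and LPS libraries chose these genes; the libraries with LPS and ApoA-I lie at 21.4% to 23.1% on the left, above every ApoA-I library, and at 4.65% to 5.2% on the right, below every ApoA-I library.

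Genes were next ranked by their mean TPM (a level per transcript length) in Control libraries, which take no part in the comparison. Of the 100 most abundant, 48 were higher and 22 lower in LPS with ApoA-I than in ApoA-I, and 30 were not called; 10 rose and 7 fell by more than 1 log2 unit. The called share was 70% here, 82.4% for the next 900 genes, 80% for the 2000 after them, 74.6% for the 3000 after those and 61% for the remaining 5902, against 69.4% over all genes. Changes over 1 log2 unit were found in 14% to 17% of the genes in the upper 4 classes and in 30.4% of the least abundant, where 598 rose and 1199 fell. That class reaches down to 0 TPM in Control, which like ApoA-I is without LPS. Genes near 0 there passed the filter on low counts only through groups where they are higher. An unknown part of the 598 rises thus follows from rank and filter, and the 30.4% is a description only.

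Of the 48 abundant genes that were higher, 8 belong to a set that varied together within groups. These 8 genes have a mean of at least 1000 CPM, and their deviations from the group means correlated with those of the most abundant gene at 0.98 or more. They held 1.92%, 9.43%, 2.66% and 1.61% of counts in ApoA-I libraries 1 to 4 and, with LPS and ApoA-I together, 12.8%, 6.81%, 9.26% and 9.92%. ApoA-I 2 was the only library of its group inside the range of the other group. Outside the comparison the share also varied widely within groups. It was 7.46%, 4.05%, 11.87% and 8.09% in Control libraries 1 to 4. In LPS libraries 1 to 4 it was 11.96%, 10.66%, 10.24% and 2.08%. All 8 were called higher in LPS with ApoA-I than in ApoA-I, by 1.51 to 1.67 log2 units (edgeR adjusted p from 0.0079 to 0.0217). Only 7 of the 8 were called without ApoA-I 1, without ApoA-I 3, without ApoA-I 4 or without LPS with ApoA-I 1. Of their values 95.3% were not whole numbers, by a tolerance of 0.005, so their counts were divided between genes by estimation and are uncertain for each single gene. Outside these 8 genes, 40 of the abundant genes were higher and 22 lower. With counts of the 8 genes left out of the totals, the raised genes held 9.76% to 10.9% in ApoA-I libraries and 23.9% to 24.8% in libraries with LPS and ApoA-I.

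Some genes were without any count in 1 of the 2 groups. Such genes passed the filter on low counts only through groups where they are higher, and could move only away from 0, so their calls and direction follow from the choice and are given as a description, beside the 34.5% higher and 34.8% lower over all genes. Of the 27 tested genes with no counts in the 4 ApoA-I libraries, 25 were called higher with LPS and ApoA-I. The mean levels of the 25 there were low, from 0.154 to 4.42 CPM with a median of 0.686. Set against a floor of 3 counts summed over the group, they were at least 3.04-fold to at least 87.1-fold higher. In LPS libraries their median level was 2.43 CPM. In the other direction, 20 tested genes had no counts with LPS and ApoA-I, and all 20 were called lower. Their mean levels in ApoA-I libraries were 0.358 to 17.1 CPM, at least 6.64-fold to at least 317-fold higher than the floor. Floors cover counting error only.

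The identifiers with the largest changes among called genes whose groups do not overlap, with a mean of 5 CPM or more on the higher side, are given by library. Their calls, directions and p-values follow from this choice and are given as a description. Over all tested genes, the groups did not overlap in CPM, with LPS and ApoA-I higher, in 31.7%, and lower in 31.4%. ENSRNOG00000000838 had 0.0658, 0, 0 and 0.069 CPM in ApoA-I libraries 1 to 4 and 417, 451, 325 and 341 CPM in the libraries with LPS and ApoA-I. It was thus at 1 or no count in each library without LPS. The 2 counts of the ApoA-I group against 21385 gave a ratio of 11400 (95% exact counting interval 3150 to 93900). The fitted log2 fold change was 13.14 (edgeR adjusted p = 4.94e-22), with precision limited by the 2 counts, as the interval shows. With LPS alone the gene had 900 ± 43.1 CPM, and with LPS and ApoA-I 384 ± 60.1 CPM (SD, n = 4 each). The difference between the 2 responses, fitted on these few counts without LPS, was -1.34 log2 units and did not pass the test (SE 1.65, edgeR adjusted p = 0.546).

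ENSRNOG00000026805 had 0, 0.0708, 0 and 0.207 CPM in ApoA-I libraries 1 to 4 and 58.3, 60, 52.2 and 52.1 CPM in the libraries with LPS and ApoA-I. The libraries with both agents lay close together, at 55.7 ± 4.12 CPM (SD, n = 4). With 4 counts in the ApoA-I group against 3099, the ratio was 824 (95% exact counting interval 321 to 3020). Its fitted log2 fold change was 9.51 (edgeR adjusted p = 4.76e-20), with precision limited by the 4 counts, as the interval shows. With LPS alone it had 102 ± 4.37 CPM (SD, n = 4). The difference between the responses was -2.53 log2 units (SE 1.15, edgeR adjusted p = 0.0827) and did not pass.

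ENSRNOG00000020281 fell furthest. Its ApoA-I libraries had 27, 19.6, 18.7 and 2.9 CPM, so replicate 4 was well below the others, and it had no counts in the 4 libraries with LPS and ApoA-I. Against the floor of 3 counts it was at least 317-fold lower. It passed the filter on low counts only through the groups without LPS, so its call and direction follow from the choice. Since it also had no counts in the LPS libraries, the difference between the responses could not be tested.

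ENSRNOG00000063592 had 6.64, 7.37, 9.96 and 8.14 CPM in ApoA-I libraries 1 to 4 and no counts with LPS and ApoA-I. It was at least 149-fold lower against the floor. This gene, too, passed the filter on low counts only through the groups without LPS. The LPS libraries held 4 counts in all. The difference between the responses was -3.14 log2 units (SE 1.68, edgeR adjusted p = 0.145) and did not pass.

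**Figure D4:**
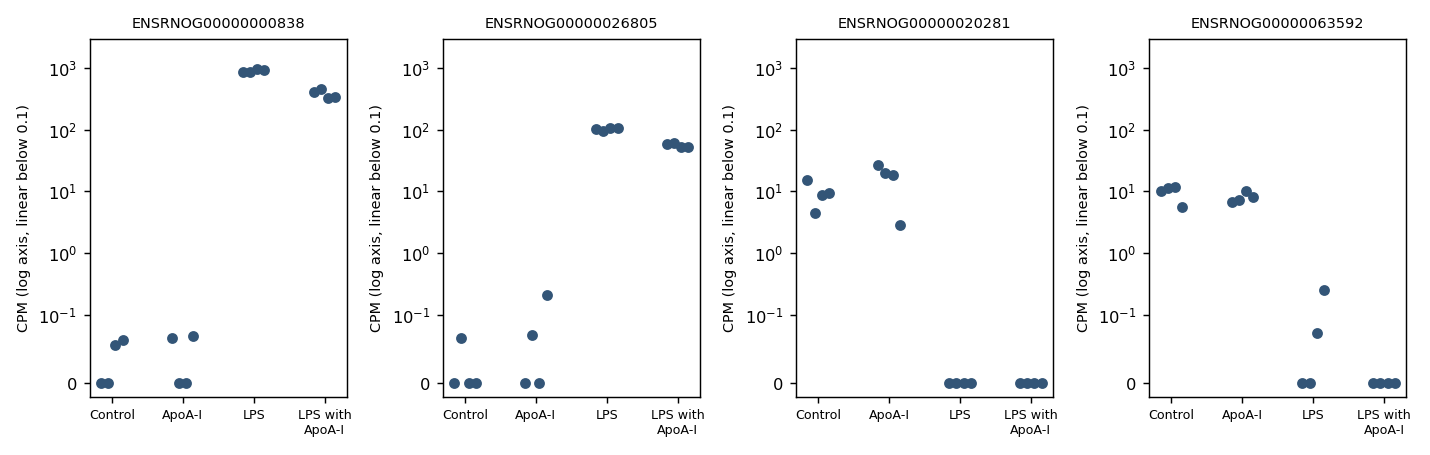
CPM of 4 identifiers in each of the 16 libraries (log axis, linear below 0.1; points are libraries, 4 per group). The raised identifiers on the left are at or near 0 without LPS and reach 325 to 451 and 52.1 to 60 CPM with LPS and ApoA-I; the lowered identifiers on the right are at 0 in all libraries with LPS and ApoA-I.

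A readout that no rule above used is the ratio of estimated counts to TPM, which follows the average effective length of a gene's transcripts and so shifts when the estimated mix of long and short transcripts shifts. It was read for the 5368 genes with at least 10 TPM in each of the 16 libraries, relative to the median gene of the library. The median absolute difference between LPS with ApoA-I and ApoA-I was 0.0054 log2 units. Only 9 genes (0.168%) had groups that did not overlap and means over 1.2-fold apart, 5 toward longer and 4 toward shorter transcripts. The largest differences were 0.55 and -0.75 log2 units. Of the 9, 5 had a difference of the same sign and over 1.2-fold in LPS against Control, where overlap of the groups was not considered. The share of all 5368 genes past 1.2-fold in LPS against Control was not computed, so this count is a description only. No test was run on this measure.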

How the data were processed

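Estimated counts and TPM per gene were deposited by the authors for 16 libraries of primary rat microglia, 1 column per library, matched to samples by title. A column kit was used for RNA and a company made the libraries, per the labels' protocols. The submitters' processing notes name RSEM 1.3.1, STAR 2.7.10b and cutadapt 1.8.1 with no step assigned to each, and the mouse build mm10, while the identifiers are Ensembl rat. Which rat annotation was used is not given here; a mismatch would affect counts of single genes, and this could not be checked.

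The deposited estimated counts (3.24% of values not whole, tolerance 0.005) were rounded. Genes were kept by filterByExpr (minimum count 10). All 16 libraries were fitted with group means, TMM and the quasi-likelihood test of edgeR 4.0.16 (R 4.3.3, 12 residual degrees of freedom), with Benjamini-Hochberg adjustment over 11902 genes. SEs, given only for differences between responses, were derived from the log2 fold change and its F statistic. They are approximate where a group has few counts. Alternatives used DESeq2 1.42.0, limma 3.58.1 on log2(TPM + 1) and log2(TPM + 0.1), library totals, no filter, a replicate block, 8 libraries only and leaving out each library. Replicates within each of the 2 groups were checked for duplicated libraries, and all 12 pairs exceeded counting noise, with chi-square values of 3.14 to 72.4 for each degree of freedom.

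Tests by gene list and by cell type marker were planned and could not be run without names. Identifiers were named by the rule set for this case: the 2 largest increases and 2 largest decreases. Comparison, lists and rules were chosen with earlier results of these data known. Size classes, abundance ranks and the count to TPM ratio were added after values had been seen. Simulated data of the comparison LPS with ApoA-I against ApoA-I held 11902 genes (200 changed, all at 5 CPM or more). There, 81.1% of 1.5-fold, 98.7% of 2-fold and 100% of 4-fold changes were recovered, with 6 false calls. In the libraries themselves 8255 genes were called. Recovery with that many changed genes was not tested, nor was the number of false calls.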

Additional observations from a re-analysis of the deposited data

Results flagged for a closer look

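Among 4 libraries of a group, a value was set apart where its gap to the nearest other exceeded Dixon's 95% critical share of the group's range, which chance gives in about 1 of 20 groups; 3 values met this over 40 groups of values examined. The genes raised without ApoA-I held 23.1% of counts in LPS with ApoA-I 2, against 21.4% to 21.7% in the other libraries of that group. With the 8 covarying genes left out of the totals, the 4 libraries had 24.6%, 24.8%, 23.87% and 23.95%. The 8 covarying genes held 9.43% of counts in ApoA-I 2, against 1.61% to 2.66% in the other ApoA-I libraries. The 10 most abundant genes of the same library held 12.4% of its counts, against 6.998% to 7.49% in the others. Their part in the comparison was not tested gene by gene; with the log2 share of the 8 genes as a covariate, chosen after seeing the data, 7371 genes were called in place of 8255.

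By the test of the difference itself, the LPS response differed with and without ApoA-I in 4880 genes.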

How the results depend on the processing

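Scaling moved the directions most. With library totals only, 2206 genes were higher in the response with ApoA-I and 2308 in LPS against Control, the negative differences between responses were 1583, and 877 genes were raised by more than 1 log2 unit without ApoA-I, 720 of them higher with it. With limma on log2(TPM + 1), LPS with ApoA-I against ApoA-I had 1882 genes higher and 6528 lower, 434 of them higher by more than 1 log2 unit, LPS against Control had 2134 higher and 6899 lower, and 608 of 696 raised genes were higher with ApoA-I. On log2(TPM + 0.1) these values were 1878 and 6491, 587, 2125 and 6902, and 683 of 839. The positive share of the differences between responses went from 50.7% with TMM to 65.1% when totals alone were used, 60.4% on log2(TPM + 1) and 46.4% with DESeq2. The share of raised genes still called higher stayed between 74.4% (no filter) and 88.2% (8 libraries only), and of lowered genes still called lower between 82.3% (no filter) and 96.4% (log2(TPM + 1)), over these alternatives, leaving out single libraries and the covariate fit. Leaving out each library gave 7904 to 8171 calls for the response with ApoA-I and 4550 to 4880 differences between responses. The 4 identifiers kept direction and call under all 16 alternatives that were run for them. They were chosen as the largest changes, with few or no counts in the lower group, so this outcome follows from the choice and is no check.

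Replicate numbers are shared between groups, but the deviations of same-numbered ApoA-I and LPS with ApoA-I libraries correlated at only 0.0064 to 0.061, so the numbers were not taken as pairs; with a replicate block, 8231 genes were called. For the count to TPM ratio, a minimum of 20 TPM left 3563 genes, again with 9 past the threshold. Alternatives for gene lists were not run, since no list could be applied. Depth limits genes near 3 counts per group, where fold changes are bounds.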
